A study of Mus musculus with 8 samples.

Results

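NF-κB is a family of dimeric transcription factors, and the genes described here are its 5 subunits, *Nfkb1*, *Nfkb2*, *Rel*, *Rela* and *Relb*, together with 5 genes of the IκB inhibitor family, *Nfkbia*, *Nfkbib*, *Nfkbie*, *Nfkbiz* and *Bcl3*. The members were taken by gene symbol, and all 10 were found among the 54658 symbols of the deposited count table. The RNA-Seq samples were cultures of primary mouse articular chondrocytes, 4 of which received IL-1β (1 ng/mL) and 4 vehicle for 24 h. The cells came from femoral head cartilage of wild-type mice aged 3 weeks and were cultured in plates in medium with serum, and neither group carried a mutation or transgene. How many mice made up a sample is not given in the sources used here, nor whether the 4 samples of a group were separate isolations, so the p-values measure the spread between these samples, which may be technical.

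In resting cells, NF-κB dimers are held in the cytoplasm by the classical IκB proteins, whose ankyrin repeats cover the nuclear localization signal of the dimer. IL-1β binds its receptor and, through MyD88, IRAK and TRAF6, activates the IKK complex, which marks IκB for degradation and frees dimers such as p50-RelA to enter the nucleus and induce cytokines, chemokines and matrix-degrading proteases in chondrocytes. Several of the genes induced encode inhibitors or subunits of NF-κB itself, so that the pathway feeds back on its own components. A non-canonical branch, through NIK and IKKα, processes the p100 product of *Nfkb2* to p52, the partner of RelB.

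All 10 genes passed the filter on low counts, and all 10 rose under IL-1β, with fold changes from 1.24 for *Rel* to 6.20 for *Nfkbiz*. The inhibitors *Nfkbiz*, *Bcl3* and *Nfkbia* and the subunit *Relb* were past 2-fold, *Nfkbie*, *Nfkb1* and *Nfkb2* lay just under it, and *Nfkbib*, *Rela* and *Rel* changed least. Abundances are CPM, read counts scaled to the library size and edgeR's TMM factor, and are given as the mean ± SD of 4 samples. A gene was called when its adjusted p-value was under 0.05 in edgeR's quasi-likelihood test, fitted on the 14404 genes that exceeded 1 CPM in 4 or more samples and adjusted by Benjamini-Hochberg over all of them. Over all genes tested, 20.4% were called higher under IL-1β and 19.8% lower, and 5.21% were called and past 2-fold (2.86% higher and 2.35% lower), against 10 called higher and 4 past 2-fold among the 10 members. The median log2 fold change was 0.94 over the members and -0.0012 over all genes tested.

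For 7 of the 10 members a promoter window was at hand from RefSeq (build GRCm38.p6), a stretch of 300 bases that spans a transcription start. No window was at hand for *Nfkb1*, *Relb* and *Nfkbiz*, which were therefore not searched. The windows at hand were searched on both strands for the κB consensus, the motif bound by NF-κB dimers. Its pattern was GGG, A or G, any base, A or T, 2 bases each C or T, then CC. Another form, here the TTTCC form, was GGG and any 2 bases followed by TTTCC, so it allows any base after GGG. The matches are shown because they mark which of these genes carry the letters of an NF-κB site next to their start. The 5 genes with a match are printed on the strand of the gene, 5′ to 3′, with 10 bases on either side and the matched bases in capitals.
*Nfkb2*, first start, chr19:46304688-46304717 (+): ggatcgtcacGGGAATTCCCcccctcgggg
*Nfkb2*, first start, chr19:46304716-46304745 (+): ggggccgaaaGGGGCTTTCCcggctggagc
*Nfkb2*, at the second start, chr19:46305695-46305724 (+): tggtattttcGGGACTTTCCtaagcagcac
*Rel*, chr11:23771041-23771070 (-): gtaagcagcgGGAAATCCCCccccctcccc
*Nfkbia*, chr12:55492657-55492686 (-): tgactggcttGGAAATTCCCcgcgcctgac
*Nfkbie*, chr17:45555584-45555613 (+): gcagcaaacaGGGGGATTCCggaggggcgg
*Bcl3*, chr7:19822734-19822763 (-): tcggcggcagGGGAAGTCCCgctgcccggc

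The matches printed for *Rel*, *Nfkbia* and *Bcl3* read on the strand opposite to the gene as GGGGATTTCC, GGGAATTTCC and GGGACTTCCC, and that of *Rel* overlaps a further match on the strand of the gene, GGGAAATCCC. *Nfkb2*, with 3 annotated starts, held 4 separate matches when overlapping ones were merged, with the one not shown 236 bases before the second start, and the other 4 genes held 1 each. The match lay 29 bases before the start in *Nfkbia*, 91 bases before it in *Rel*, 106 bases before it in *Nfkbie* and 2 bases after it in *Bcl3*. The windows of *Rela* and *Nfkbib* held no match to either motif, which says only that these letters are not in these 300 bases. Among all 27025 genes with such a window, 5.14% had at least 1 match to the κB consensus and 1.89% had at least 1 match to the TTTCC form (some of these matches also fit the consensus), compared with 5 and 3 of the 7 members. The 3 with the TTTCC form were *Nfkb2*, *Rel* and *Nfkbia*. A match is a description of the sequence and not evidence of binding.

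**Figure D1:**
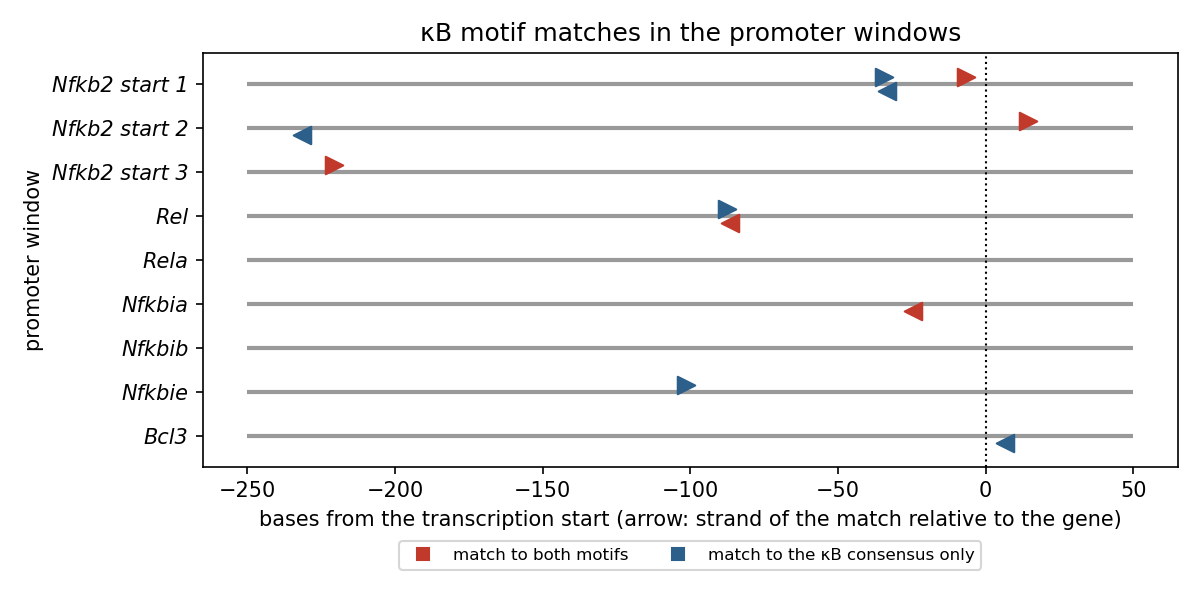
κB motif matches in the 300-base promoter windows of 7 genes, by distance from the transcription start in bases (dotted line at the start), with arrows for the strand of the match relative to the gene and red for matches to both motifs. The matches nearest to a start are those of *Bcl3*, *Nfkb2* and *Nfkbia*, and the rows of *Rela* and *Nfkbib* are empty.

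RelA and c-Rel, encoded by *Rela* (chromosome 19, 5637483 to 5648130) and *Rel* (chromosome 11, 23736847 to 23770970), carry the transactivation domains of the canonical dimers. *Rela* had 119, 123, 130.0 and 127 CPM in IL-1β replicates 1 to 4 and 88.7, 93.6, 98.9 and 92.8 CPM in the vehicle replicates. The groups did not overlap, with all IL-1β values the higher ones, as for 18.7% of all genes tested. The rise was 1.34-fold (log2 fold change 0.42, standard error 0.0374, adjusted p = 2.16e-10 from edgeR). *Rel* was expressed at a much lower count, with 11.7 to 12.9 CPM under IL-1β and 9.63 to 10.3 CPM under vehicle, from 140 to 199 reads per sample. Its groups did not overlap either, but it changed least of the 10 genes (log2 fold change 0.31 ± 0.0876, standard error, adjusted p = 0.0057), with a 95% confidence interval from 1.09-fold to 1.40-fold.

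*Relb* (chromosome 7, 19606217 to 19629438), the transactivating subunit of the non-canonical branch, changed most among the subunits. It had 65.4, 67.8, 69.7 and 68.7 CPM in the IL-1β samples and 30.3, 31.7, 31.8 and 30.6 CPM in the vehicle samples. Its samples were thus tightly grouped, and it rose 2.19-fold (log2 fold change 1.13, standard error 0.0423, adjusted p = 5.28e-19). Under glmTreat, which asks whether a change exceeds 2-fold, *Relb* was still called (adjusted p = 0.019), and it was the only subunit to be so.

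*Nfkb1* (chromosome 3, 135584655 to 135691547) encodes p105, the precursor of p50, and *Nfkb2* (chromosome 19, 46304320 to 46312385) encodes p100, the precursor of p52. Both precursors keep ankyrin repeats and act as inhibitors until they are processed. *Nfkb1* had 145, 150.3, 149 and 149 CPM under IL-1β and 79.9, 78.5, 80.4 and 82.2 CPM under vehicle. *Nfkb2* had 76.9, 83.1, 80.2 and 82.2 CPM under IL-1β and 43.4, 46.4, 44.1 and 42.9 CPM under vehicle. The groups of each gene lay far apart compared with the spread within them. The fold changes were 1.85 for *Nfkb1* (95% confidence interval 1.77 to 1.94, adjusted p = 2.82e-19) and 1.82 for *Nfkb2* (1.72 to 1.94, adjusted p = 1.78e-16), so that the intervals of the precursors overlapped and neither reached 2-fold. In the GENCODE vM21 annotation, *Nfkb2* shares 18.1% of its exon bases with genes on the opposite strand, among them *Psd*. Whether reads were counted by strand is not given in the sources used here.

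**Figure D2:**
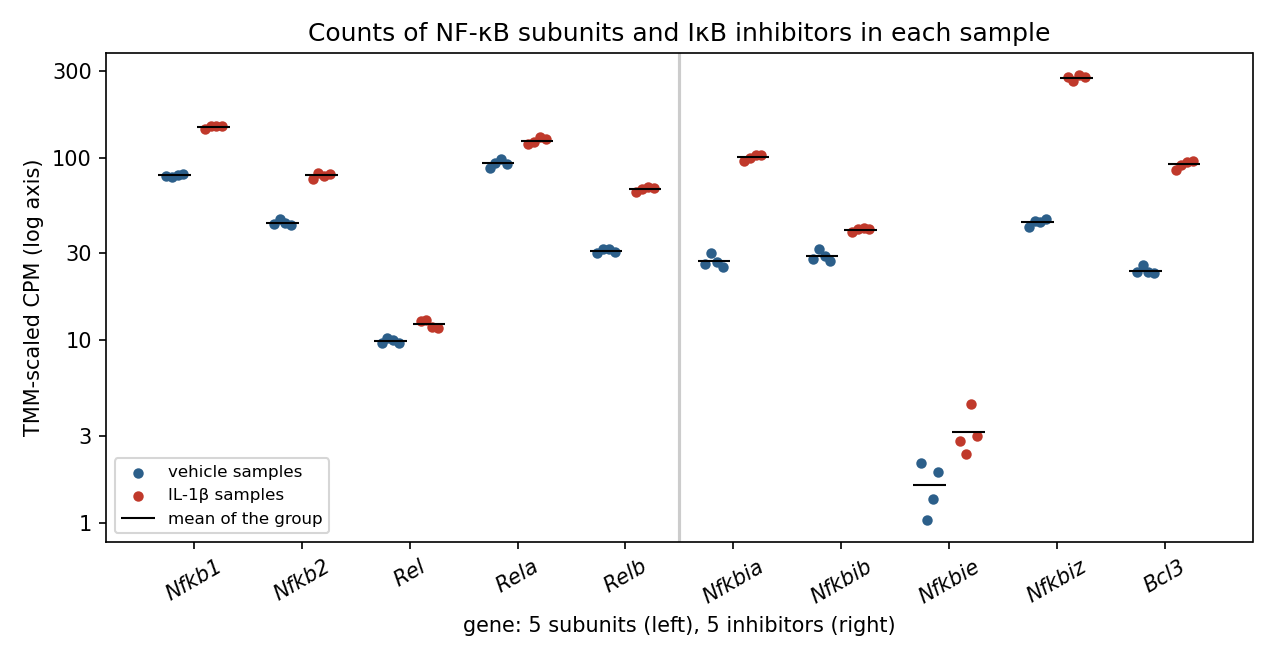
TMM-scaled CPM (log axis) of the 5 subunits and 5 inhibitors in the 4 vehicle samples (blue) and the 4 IL-1β samples (red), with the mean of each group as a black line. All IL-1β samples lie above all vehicle samples for each gene, with the widest gap for *Nfkbiz* and the narrowest for *Nfkbie*, where 2.39 CPM in the lowest IL-1β sample compares with 2.14 CPM in the highest vehicle sample.

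*Nfkbia*, *Nfkbib* and *Nfkbie* encode the classical inhibitors IκBα, IκBβ and IκBε, which retain dimers in the cytoplasm. *Nfkbia* (chromosome 12, 55489410 to 55492647), the best-known feedback target of NF-κB, had 96.1, 99.8, 104 and 104 CPM under IL-1β and 26.4, 30.02, 26.9 and 25.1 CPM under vehicle. The lowest IL-1β sample lay far above the highest vehicle sample. The rise was 3.72-fold (log2 fold change 1.89, standard error 0.0479, adjusted p = 4.62e-23). *Nfkbib* (chromosome 7, 28758251 to 28767512) responded far less, with 39.3 to 41.2 CPM under IL-1β and 27.4 to 31.7 CPM under vehicle, a rise of 1.40-fold (log2 fold change 0.48, standard error 0.0516, adjusted p = 7.73e-09). It shares 16.4% of its exon bases with opposite-strand genes in vM21. Vehicle samples held *Nfkbia* and *Nfkbib* at close counts, 27.1 ± 2.08 and 29.0 ± 1.93 CPM (SD, n = 4), and under IL-1β these were 101 ± 3.63 and 40.5 ± 0.816 CPM.

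*Nfkbie* (chromosome 17, 45555703 to 45563169) was the scarcest of the 10 genes. It had 2.80, 2.39, 4.47 and 2.99 CPM in IL-1β replicates 1 to 4, from 31, 33, 75 and 42 reads, and 2.14, 1.04, 1.36 and 1.91 CPM in the vehicle replicates, from 37, 18, 19 and 29 reads. The IL-1β samples lay above the vehicle samples by a narrow margin, and IL-1β replicate 3 was the highest of the 8. The rise was 1.99-fold with a wide interval, from 1.44-fold to 2.74-fold (log2 fold change 0.99, standard error 0.226, adjusted p = 0.000742). Without IL-1β replicate 3 the log2 fold change was 0.75 (adjusted p = 0.0132).

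*Nfkbiz* and *Bcl3* encode the atypical inhibitors IκBζ and Bcl-3, which act in the nucleus on p50 or p52 and can activate as well as repress transcription. *Nfkbiz* (chromosome 16, 55811375 to 55838899) had 277, 264, 284 and 277 CPM under IL-1β and 41.6, 45.2, 44.6 and 46.5 CPM under vehicle. It was the most strongly changed of the 10 genes and had the highest count of them in all 4 IL-1β samples. It rose 6.20-fold (95% confidence interval 5.90 to 6.53, adjusted p = 1.45e-29), and 66 of the 14404 genes tested had a higher log2 fold change. *Bcl3* (chromosome 7, 19808462 to 19822770) had 85.9, 92.0, 95.2 and 96.0 CPM under IL-1β and 23.7, 25.9, 23.7 and 23.4 CPM under vehicle. Its samples were again well separated, and vehicle replicate 2 lay above the other vehicle samples. The rise was 3.82-fold (log2 fold change 1.93, standard error 0.0473, adjusted p = 2.02e-23), close to that of *Nfkbia*, whose 95% confidence interval of 3.47 to 3.98 overlapped that of *Bcl3*, 3.57 to 4.09. *Bcl3* shares 6.505% of its exon bases with an antisense gene, *Gm16175*. Under glmTreat, *Nfkbiz*, *Bcl3* and *Nfkbia* were called, and *Nfkbib* and *Nfkbie* were not (adjusted p = 1 for both).

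**Figure D3:**
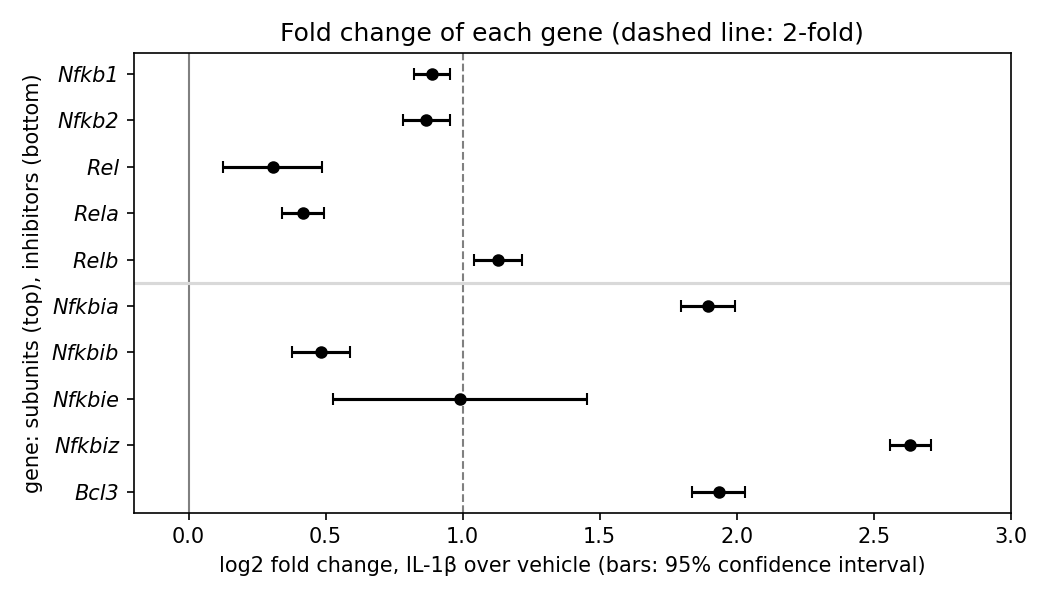
Log2 fold change of IL-1β over vehicle from edgeR for each gene (points), with 95% confidence intervals (bars), a solid line at 0 and a dashed line at 2-fold. All intervals lie above 0, those of *Nfkbiz*, *Bcl3*, *Nfkbia* and *Relb* lie wholly beyond 2-fold, and that of *Nfkbie* is the widest.

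The deposited gene length equals the summed length of all exons in GENCODE vM21 for all members but *Rela* and *Nfkb2*. These were deposited at 2716 and 3289 bases, against 3072 and 4584 bases in vM21. To compare levels between genes, CPM were divided by the deposited length in kilobases. On this scale (CPM per kb), the vehicle samples were led by *Rela* at 34.4 ± 1.56, followed by *Nfkbia* at 16.8 ± 1.29, *Nfkb2* at 13.4 ± 0.475, *Nfkbib* at 13.4 ± 0.888, *Bcl3* at 9.76 ± 0.457, *Nfkbiz* at 8.86 ± 0.411, *Relb* at 8.005 ± 0.192, *Nfkb1* at 6.65 ± 0.126, *Rel* at 1.33 ± 0.0418 and *Nfkbie* at 0.53 ± 0.165 CPM per kb. Of the neighbours in this order, only *Nfkb2* and *Nfkbib* overlapped between samples. With IL-1β the order was *Nfkbia* at 62.6 ± 2.25, *Nfkbiz* at 54.9 ± 1.68, *Rela* at 45.9 ± 1.81, *Bcl3* at 37.3 ± 1.85, *Nfkb2* at 24.5 ± 0.826, *Nfkbib* at 18.7 ± 0.376, *Relb* at 17.5 ± 0.478, *Nfkb1* at 12.3 ± 0.20, *Rel* at 1.65 ± 0.079 and *Nfkbie* at 1.04 ± 0.298 CPM per kb, and no neighbours overlapped. *Rela* thus had the highest level per length under vehicle and lay below *Nfkbia* and *Nfkbiz* under IL-1β, and *Nfkbiz* moved from rank 6 to rank 2. These ranks hold for the deposited lengths, and several moved with the length used, most of all that of *Nfkb1*. Its exons sum to 12061 bases, while its transcript with the longest coding sequence has 4117 bases, and with such transcript lengths *Nfkb1* had rank 2 under vehicle (19.5 ± 0.369 CPM per kb) and rank 5 under IL-1β (36.0 ± 0.585 CPM per kb), and *Nfkbiz* rather than *Nfkbia* came first under IL-1β (67.0 ± 2.05 against 63.9 ± 2.30 CPM per kb). With those lengths *Relb* also moved from rank 7 to rank 4 and *Nfkbiz* from rank 6 to rank 8 under vehicle, and under IL-1β *Nfkb2* moved from rank 5 to rank 7 and *Bcl3* lay above *Rela*. *Rela* kept rank 1 under vehicle, and *Rel* and *Nfkbie* kept the lowest ranks in both groups.

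The composition of each group of genes was described by the share of each gene in the sum of CPM per kb, per sample and without a test. Among the subunits, *Rela* made up 53.0, 53.3, 55.2 and 54.1% of the sum in the vehicle samples and 44.8, 44.3, 45.9 and 45.3% in the IL-1β samples. The share of *Relb* was 12.4 to 12.7% under vehicle and 17.1 to 17.2% under IL-1β. *Nfkb2* had 21.1 ± 0.702% under vehicle and 24.1 ± 0.542% under IL-1β, and *Nfkb1* had 10.4 ± 0.396 and 12.1 ± 0.203%. Thus the share of *Rela* was lower by 8.84 percentage points under IL-1β although its own level was higher, and those of *Relb*, *Nfkb2* and *Nfkb1* were higher, each with no overlap between the groups. *Rel* had the smallest share, 2.08 ± 0.0531% under vehicle and 1.62 ± 0.115% under IL-1β. These shares hold for the deposited lengths. With the lengths of coding transcripts, *Rela* had 41.3 ± 0.896% under vehicle and 32.8 ± 0.597% under IL-1β. With those lengths *Nfkb1* had 23.4 ± 0.748 and 25.7 ± 0.356%, and *Nfkb2* had 16.9 ± 0.564 and 18.3 ± 0.392%.

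Among the inhibitors, *Nfkbib* made up 26.6 to 27.5% of the sum under vehicle and 10.5 to 10.997% under IL-1β. *Nfkbiz* made up 16.98 to 19.5% under vehicle and 30.7 to 32.7% under IL-1β. These were the widest shifts in composition, of -16.4 and 13.5 percentage points. The share of *Nfkbib* was lower under IL-1β although its own level was higher (18.7 ± 0.376 against 13.4 ± 0.888 CPM per kb). With the deposited lengths, *Nfkbia* had the largest share in both groups, 34.1 ± 0.977% under vehicle and 35.9 ± 0.365% under IL-1β, and *Bcl3* had 19.8 ± 0.223 and 21.3 ± 0.534%. With the lengths of coding transcripts *Nfkbiz* had the largest share under IL-1β (33.2 ± 0.919% against 31.7 ± 0.328% for *Nfkbia*), and in CPM without division by length *Nfkbiz* lay above *Nfkbia* in both groups. Without that division the small differences of *Nfkbia* and *Bcl3* changed sign, to -1.77 and -1.12 percentage points. Summed over the genes, the inhibitors stood at 0.773 ± 0.035 times the subunits under vehicle and at 1.71 ± 0.024 times the subunits under IL-1β (CPM per kb). For the classical inhibitors alone, the ratio was 0.481 ± 0.0287 under vehicle and 0.808 ± 0.0073 under IL-1β. Both ratios hold for the deposited lengths. With the lengths of coding transcripts, the mean ratio of all inhibitors to all subunits was 0.669 under vehicle and 1.44 under IL-1β. These ratios are of RNA and say nothing of the amounts of protein.

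**Figure D4:**
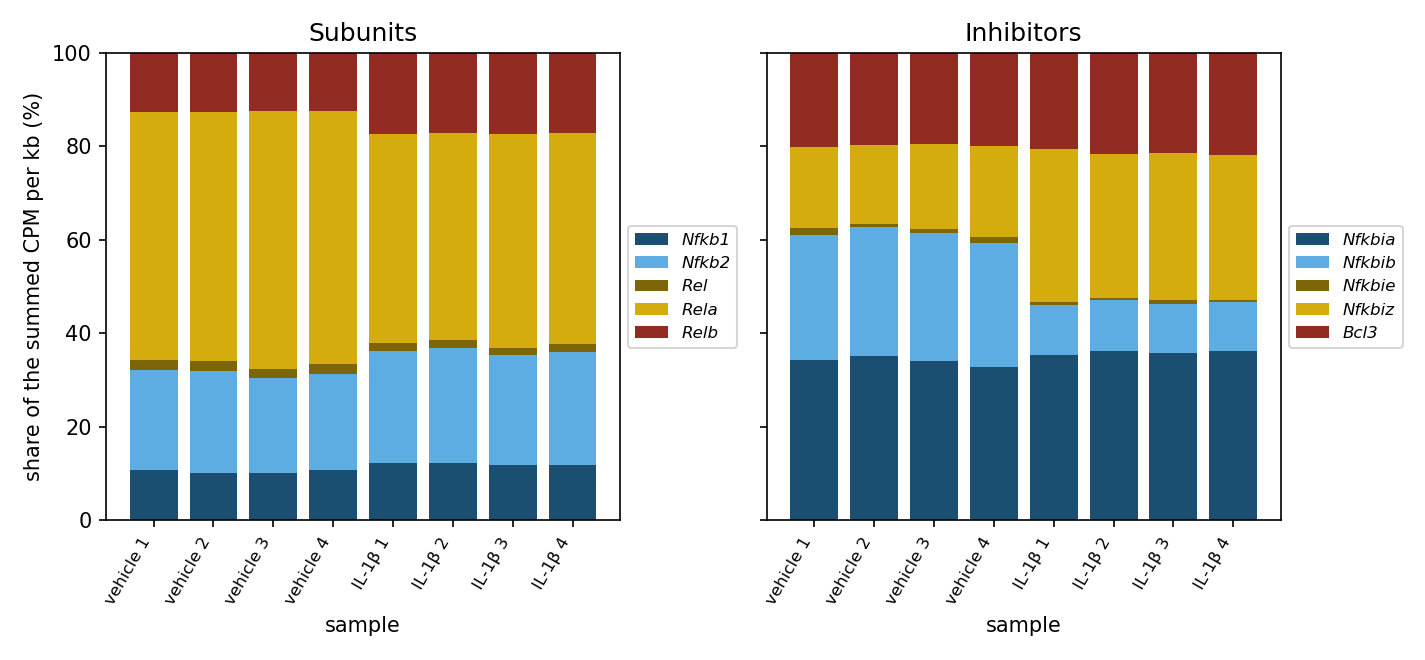
Share of each gene in the summed CPM per kb of the 5 subunits (left) and the 5 inhibitors (right), in percent, for each of the 4 vehicle and 4 IL-1β samples. Levels are per kb of the deposited gene lengths. The share of *Rela* among the subunits is 53.0 to 55.2% under vehicle and 44.3 to 45.9% under IL-1β. Among the inhibitors, the share of *Nfkbib* is lower under IL-1β and that of *Nfkbiz* is higher. The CPM per kb of *Rela* and *Nfkbib* themselves were higher under IL-1β.

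Of 41 other pathway genes listed, 39 were tested, of which 14 were called higher, 2 were called lower and 23 were not called, where 40.2% of all genes tested were called in either direction. Their median log2 fold change was 0.06, and 2 were past 2-fold. Of the 10 genes for IKK and upstream kinases and their partner proteins, 3 were called higher and 1 lower. *Ikbke*, which encodes an IKK-related kinase, rose most (log2 fold change 2.29, adjusted p = 1.1e-19), and *Chuk*, which encodes IKKα, was called lower (43.6 ± 1.13 against 51.2 ± 0.614 CPM, log2 fold change -0.23, adjusted p = 3.75e-05). Of 14 ubiquitin regulators tested, 8 were called higher and 1 lower. *Tnfaip3*, which encodes the ubiquitin-editing inhibitor A20, had the highest log2 fold change (1.42, adjusted p = 1.27e-10), and *Rbck1*, which encodes the HOIL-1 subunit of the linear ubiquitin ligase, the lowest called (-0.17, adjusted p = 0.000126). Of 14 genes for IκB degradation, nuclear import and cofactors, 3 were called, all higher, with log2 fold changes from 0.15 for *Hdac3*, a histone deacetylase, to 0.20 for *Kpna3*, an importin, and adjusted p-values of 0.00752 and 0.000912. Of the other IκB-related genes, *Nfkbil1* was tested and not called (log2 fold change -0.13, adjusted p = 0.337), and *Nfkbid*, which encodes the atypical inhibitor IκBNS, did not pass the filter, with 4 to 19 reads under IL-1β and 3 to 11 reads under vehicle.

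Of 40 widely known NF-κB target genes, 2 of which (*Tnfaip3* and *Birc3*) are also among the ubiquitin regulators and are counted in both lists, 7 did not pass the filter and 33 were tested. Of the 33, 27 were called higher, 4 were called lower and 2 were not called, where 20.4% of all genes tested were called higher and 19.8% lower. These counts favour genes that are high under IL-1β, since 9 of the 33 had a vehicle mean under 1 CPM and entered the test through the IL-1β samples, and they are given as a description only. With a CPM above 1 required in all samples, 22 target genes were called, while all 10 NF-κB genes passed and were called. Under that filter 5444 of all 12964 genes tested were called. The 5 with the highest log2 fold changes were *Saa3*, *Cxcl5*, *Mmp3*, *Nos2* and *Ccl7*. *Saa3*, an acute phase protein, had 723 ± 51.9 CPM under IL-1β and 0.918 ± 0.339 CPM under vehicle (log2 fold change 9.57, adjusted p = 7.61e-34). *Mmp3*, a matrix metalloproteinase, and *Nos2*, the inducible nitric oxide synthase, had log2 fold changes of 5.48 and 5.40. The chemokines *Cxcl5* and *Ccl7* had 5 and 13 reads in total in the vehicle samples against 2979 and 488 under IL-1β, ratios of 681 (exact 95% confidence interval of counting error 291 to 2098) and 42.9 (24.9 to 81.2). With each sample left out, the fitted log2 fold change of *Cxcl5* ranged from 8.91 to 10.02, the highest being without vehicle replicate 1. The 3 lowest were *Ccnd1*, which encodes cyclin D1 (log2 fold change -0.61, adjusted p = 8.12e-13), *Bcl2l1*, which encodes the survival factor Bcl-xL (-0.28, adjusted p = 3.1e-07), and *Gadd45b*, a stress-induced gene (-0.23, adjusted p = 5.81e-05). *Il6* and *Lcn2*, known to depend on IκBζ in other cells, were named after their values were seen. *Il6* did not pass the filter, with 17, 14, 17 and 26 reads in IL-1β replicates 1 to 4 against 0 in each vehicle sample. The IL-1β level was 28.2-fold a floor of 3 reads over the vehicle group. The exact 95% confidence interval of counting error for the ratio to vehicle began at 22.4. *Lcn2*, which encodes lipocalin-2, had 8108 ± 253 CPM under IL-1β and 286 ± 9.85 CPM under vehicle.

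**Figure D5:**
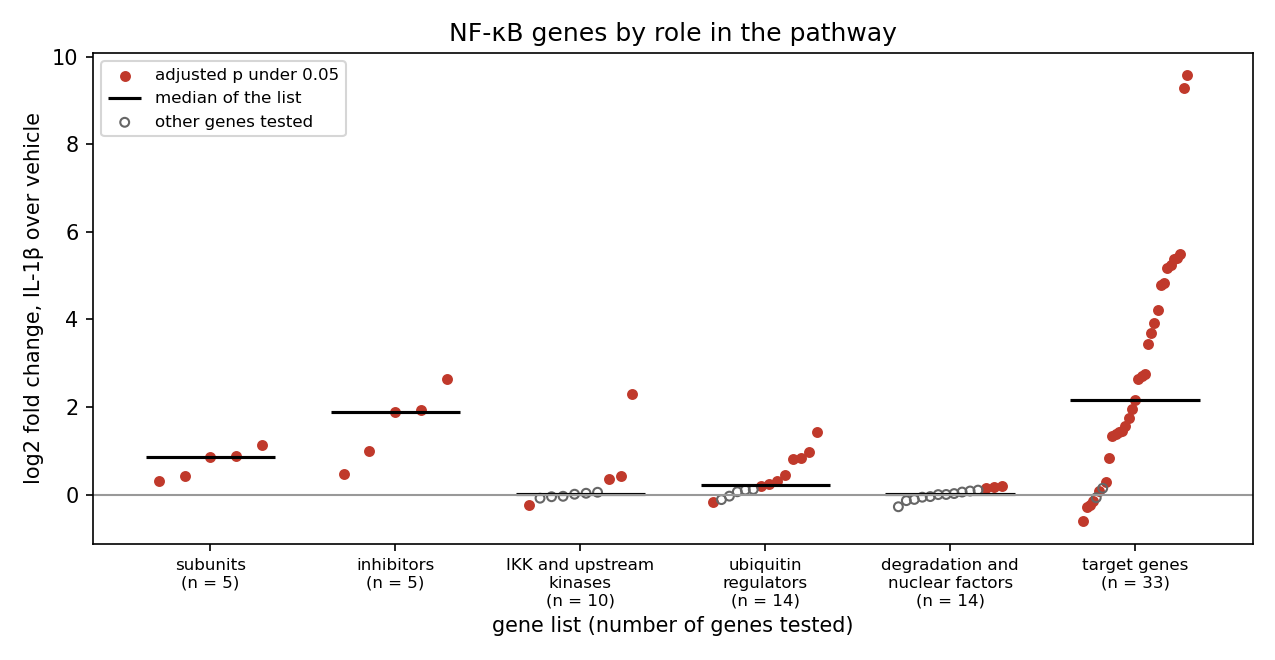
Log2 fold change of IL-1β over vehicle for the tested genes of each list, ordered by value within a list, with filled points for adjusted p-values under 0.05, open points for the other genes and a black line at the median. The median is 1.89 for the inhibitors, 0.87 for the subunits and 0.02 for the kinases and their partner proteins, among which *Ikbke* stands apart at 2.29. The target genes shown include 9 with a vehicle mean under 1 CPM.

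The genes with the pattern most like that of *Nfkbiz* across the 8 samples, by Pearson's r of log2(CPM + 1), were *Slc48a1*, *Tgfbr3* and *Lox*, with log2 fold changes of 1.10, 1.90 and 1.53. For *Rel* these were *Atf2*, *Gm18258* and *Fam8a1*, with log2 fold changes of 0.24, 1.53 and 0.22. All 6 coefficients were at least 0.988 (n = 8), as a description that follows mainly from the separation of the groups.

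Total counts per sample were 10992355 to 17456063, at which 3 reads correspond to 0.172 to 0.273 CPM. The chondrocyte markers were expressed, and all 10 were called lower under IL-1β, their sum being 3728 to 4100 CPM under IL-1β and 14820 to 15402 CPM under vehicle. In bulk samples, fewer cells of a type cannot be told apart from less RNA per cell. Of 12 leukocyte markers, 2 passed the filter, *Cd14* and *Cd68*, and both were called higher, the list summing to 28.7 to 33.0 CPM under IL-1β and 13.5 to 15.3 CPM under vehicle. The leukocyte markers *Ptprc* and *Adgre1* had means of at most 0.149 and 0.0863 CPM, and *Cd3e* and *Ly6g* had no reads. Of the markers under the filter, *Csf1r* was highest, at 0.941 CPM under IL-1β and 0.723 CPM under vehicle, followed by *Fcer1g* at 0.356 and 0.364 CPM. None of the 5 endothelial markers passed the filter, and their sum was 0.868 to 1.72 CPM over all samples. Of 7 synovial fibroblast markers 4 were tested, and the list summed to 2123 to 2246 CPM under IL-1β and 1001 to 1052 CPM under vehicle, most of it *Prg4*, which articular chondrocytes of the superficial zone also express. *Prg4* and *Pdgfra* were called higher (log2 fold changes 1.23 and 0.58), *Col3a1* was called lower (-0.34) and *Col1a1* was not called (-0.097). The 7 markers of osteoblasts and osteoclasts summed to 162 to 164 CPM under IL-1β and 195 to 205 CPM under vehicle, but moved in opposite directions. Of the 4 tested, *Ctsk* was called higher (135 against 109 CPM), and *Sp7*, *Bglap* and *Ibsp* were called lower, with log2 fold changes of -1.42, -1.62 and -3.69. The part of these shifts in the values of the NF-κB genes was not tested.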

How the data were processed

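RNA-Seq of 8 samples, 4 per treatment, was analysed. The authors trimmed reads with cutadapt, aligned them to mm10 (GENCODE vM20) with STAR, given as 2.4.2a in the submitters' processing notes and in another version in the methods, counted them with featureCounts, and deposited whole-number counts per gene symbol. Whether these counts follow the batch correction with RUVseq is not given in the sources used here. The deposited gene lengths in bases (unit: other) were used for levels per length only. The members and lists were chosen with earlier results of these data known.

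Here the counts were fitted in R 4.3.3 with edgeR 4.0.16 (quasi-likelihood, treatment as the only term), and limma 3.58.1 was loaded with it. The TMM factors entered the fit through the library sizes. Genes that exceeded 1 CPM in 4 or more samples were fitted. The code was tested on simulated data. Positions and overlaps came from GENCODE vM21 (GRCm38), in which 8 of the 10 members had the exon length deposited and *Nfkb2* and *Rela* were longer. Figures used Python 3.11.15 and matplotlib 3.10.9. Other pathway genes were named as the highest and lowest called in each list, target genes as the 5 highest and 3 lowest called, and alike genes as the 3 highest in r. Other genes are marked in the text. Markers of chondrocytes, leukocytes, endothelium, synovial fibroblasts, and osteoblasts and osteoclasts were listed as a check of the cells.

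Total counts were 10992355 to 17456063 per sample. Intervals and floors of counts cover counting error only. Replicates of a group differed by a chi-square per degree of freedom of 1.98 to 6.34, in which 1 is counting error alone, so none was a copy of another. The alternatives were DESeq2 1.42.0, DESeq2's size factors or total library size, no filter or a CPM above 1 in all samples, 1 RUVs factor written out in R, the replicate number as a block, glmTreat, other gene lengths, and each sample left out, with the filter at the size of the smaller group.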

Additional observations from a re-analysis of the deposited data

Results flagged for a closer look

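The count of *Bcl3* in vehicle replicate 2 was 25.85 CPM, against 23.4 to 23.7 CPM in the other vehicle samples, a gap of 0.868 of the whole range of the group, which is past the 95% limit of Dixon's test for 4 samples. It was the only 1 of the 20 groups of 4 values examined (the 10 genes in each treatment) to be so, and chance gives about 1 in 20. Without this sample the log2 fold change of *Bcl3* was 1.97.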

How the results depend on the processing

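All 10 NF-κB genes were called higher under each of the 15 alternatives run (7 of tool, scaling, filter, unwanted variation and pairing, and 8 with a sample left out). The count past 2-fold was 4 under the 7, 4 with glmTreat, and 4 to 5 with each sample left out, the fifth being *Nfkbie*, whose log2 fold change ranged from 0.75 to 1.17 over the alternatives (adjusted p from 9.98e-06 to 0.0132). *Rel* ranged from 0.28 to 0.33 (adjusted p 0.00569 to 0.0196). Called pathway genes numbered 16 to 17 and called target genes 22 to 32, the 22 with a CPM above 1 in all samples, a filter under which fewer genes were tested. Genes called among all tested numbered 4937 (DESeq2) to 6114 (RUVs).

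The labels number the replicates in both groups, but deviations of samples of the same number from their group means had r from -0.07 to 0.04 across genes, so no pairing by number was seen on this measure. Counting error in scarce genes weakens such an r, so whether samples were paired cannot be told from it. With the replicate number as a block, 10 members, 16 pathway genes, 31 target genes and 5644 of all genes were called.

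Shares depended on the gene length. Without division by length, the differences of IL-1β minus vehicle, in percentage points, were 3.20 for *Nfkb1*, 1.51 for *Nfkb2*, -0.99 for *Rel*, -7.37 for *Rela*, 3.64 for *Relb*, -15.0 for *Nfkbib* and 18.6 for *Nfkbiz*, and those of *Nfkbia* and *Bcl3* reversed, to -1.77 and -1.12. With lengths chosen after the data were seen, those of the longest coding transcript gave 2.37 for *Nfkb1*, 1.46 for *Nfkb2*, 5.07 for *Relb* and -15.4 for *Nfkbib*, and the exon length of vM21 gave 5.23 for *Relb*. With each sample left out no share difference changed sign. Among the 10 genes *Nfkbie* had the fewest reads, 18 to 75 per sample.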

Other observations

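*Relb* and *Bcl3* lie on the same chromosome, 7, on the minus strand of GRCm38, with 179.0 kb and 10 annotated protein-coding genes between them, *Apoe* among them. Their log2 fold changes were 1.13 and 1.93.

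The change in *Nfkbid* was called where no filter on low counts was set (log2 fold change 1.15, standard error 0.403, adjusted p = 0.0266 from edgeR), from 46 reads with IL-1β and 23 with vehicle in total, and its groups overlapped.

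Ratios between members within a sample gave further values, without a test. *Nfkb2* per *Relb* (CPM per kb) was 1.64 to 1.73 with vehicle and 1.36 to 1.45 with IL-1β, *Nfkbia* per *Rela* was 0.457 to 0.541 and 1.34 to 1.38, and *Nfkbiz* per *Nfkbia* was 0.483 to 0.594 and 0.849 to 0.923. *Bcl3* per *Nfkbia* overlapped between the groups, at 0.560 to 0.606 with vehicle and 0.581 to 0.601 with IL-1β. These values hold for the deposited lengths. With the lengths of coding transcripts, *Nfkb2* and *Relb* had 14.07 and 14.08 CPM per kb with vehicle and 25.7 and 30.7 with IL-1β. *Nfkbiz* then lay above *Nfkbia* with IL-1β, at 67.0 against 63.9 CPM per kb.

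IL-1β replicate 1, which had the smallest total count, had the lowest CPM of its group for 7 of the 10 genes and the highest for 0. Among the vehicle samples, replicate 2 was the highest for 5 genes and replicate 4 the lowest for 5.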
